A study of Mus musculus with 26 samples.

Results

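The genes of glycolysis, lactate handling and the pentose phosphate pathway were followed in monocytes and macrophages of mice with and without atypical chemokine receptor 2 (ACKR2), a receptor that removes inflammatory CC chemokines. The set held 31 genes, taken by symbol from a list of pathway members that was chosen with earlier results of these data known. They corresponded to 32 of the 50104 gene identifiers found in all 3 count tables, because Aldoa was listed at 2 loci. The second Aldoa identifier had at most 9 reads in any library and was not tested, so each comparison rests on 31 identifiers.

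Cells were sorted by FACS from resting female mice aged 8 to 10 weeks, and the RNA of 26 samples was sequenced. WT mice were C57BL/6J animals bought from a supplier, and ACKR2-/- mice came from a homozygous colony bred in house, so colony and genotype cannot be told apart. There were 4 WT and 4 ACKR2-/- samples of bone marrow monocytes, 4 and 4 of small peritoneal macrophages (SPMs), and 5 and 5 of MHCII negative interstitial macrophages from the lung. Each monocyte or SPM sample pooled 5 mice, and no agent was given to any group.

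Glucose enters the cell through facilitative transporters and is phosphorylated by hexokinases, split into triose phosphates and oxidised to pyruvate, with a net yield of ATP. Pyruvate is either reduced to lactate, which leaves through monocarboxylate transporters, or passed to the mitochondrion by pyruvate dehydrogenase. The pentose phosphate pathway branches off at glucose 6-phosphate and supplies NADPH, which phagocytes use in the oxidative burst and for antioxidant defence, and ribose for nucleotides.

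Reads assigned to genes ranged from 15450670 to 19218213 per monocyte library, from 12781144 to 35400034 per SPM library and from 19950019 to 29770252 per lung library. Ackr2 itself was listed at 0 in 7 of 8 monocyte libraries, at 0.24 to 0.62 CPM, the count scaled to the library size, in WT SPMs and at 0 in ACKR2-/- SPMs. In the lung it reached 22.1, 17.7, 7.75 and 14.6 CPM in WT replicates 1 to 4 but 0 in the library labelled WT replicate 5, and 0.28 to 1.64 CPM in ACKR2-/- libraries. WT SPM replicate 1 had a normalisation factor of 0.734 against 0.490 to 0.505 in the other WT SPM libraries. WT lung replicate 3 had a summed MHCII gene level of 96644 CPM, against 3744 to 9372 CPM in the other lung libraries. The lung libraries also held epithelial marker genes, summed to between 185 and 10368 CPM, and fibroblast marker genes, summed to between 28.7 and 584 CPM. In monocytes and SPMs the epithelial markers did not exceed 5.59 CPM. In bulk RNA, fewer cells of a type and less RNA per cell cannot be told apart.

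Taldo1, Ldha and Aldoa were the most abundant of the pathway transcripts in monocytes, SPMs and lung macrophages, respectively, when levels were expressed as CPM per kilobase of gene length on a scale shared by all 26 libraries. Taldo1, the transaldolase that returns pentose phosphates to glycolysis, had a median of 395 CPM per kb over the 8 monocyte libraries, 229 in SPMs and 216 in the lung. Eno1 (enolase), Aldoa (aldolase A) and Pkm (pyruvate kinase of muscle and leukocytes) followed in monocytes with median levels of 302, 259 and 254 CPM per kb, and their ranges overlapped that of Taldo1 (262 to 442). In SPMs Ldha, the lactate dehydrogenase subunit that favours lactate, had a median of 765 CPM per kb, next to 658 for Eno1. These neighbours overlapped in range, at 261 to 933 for Ldha and 209 to 726 for Eno1. In lung macrophages Aldoa had a median of 260 CPM per kb, Taldo1 216 and Ldha 201, again with overlapping ranges. At the lower end, Slc2a3 (GLUT3), Pfkm (muscle phosphofructokinase) and Pdk1 (a pyruvate dehydrogenase kinase) had medians of at most 1.44 CPM per kb in each cell type.

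**Figure D1:**
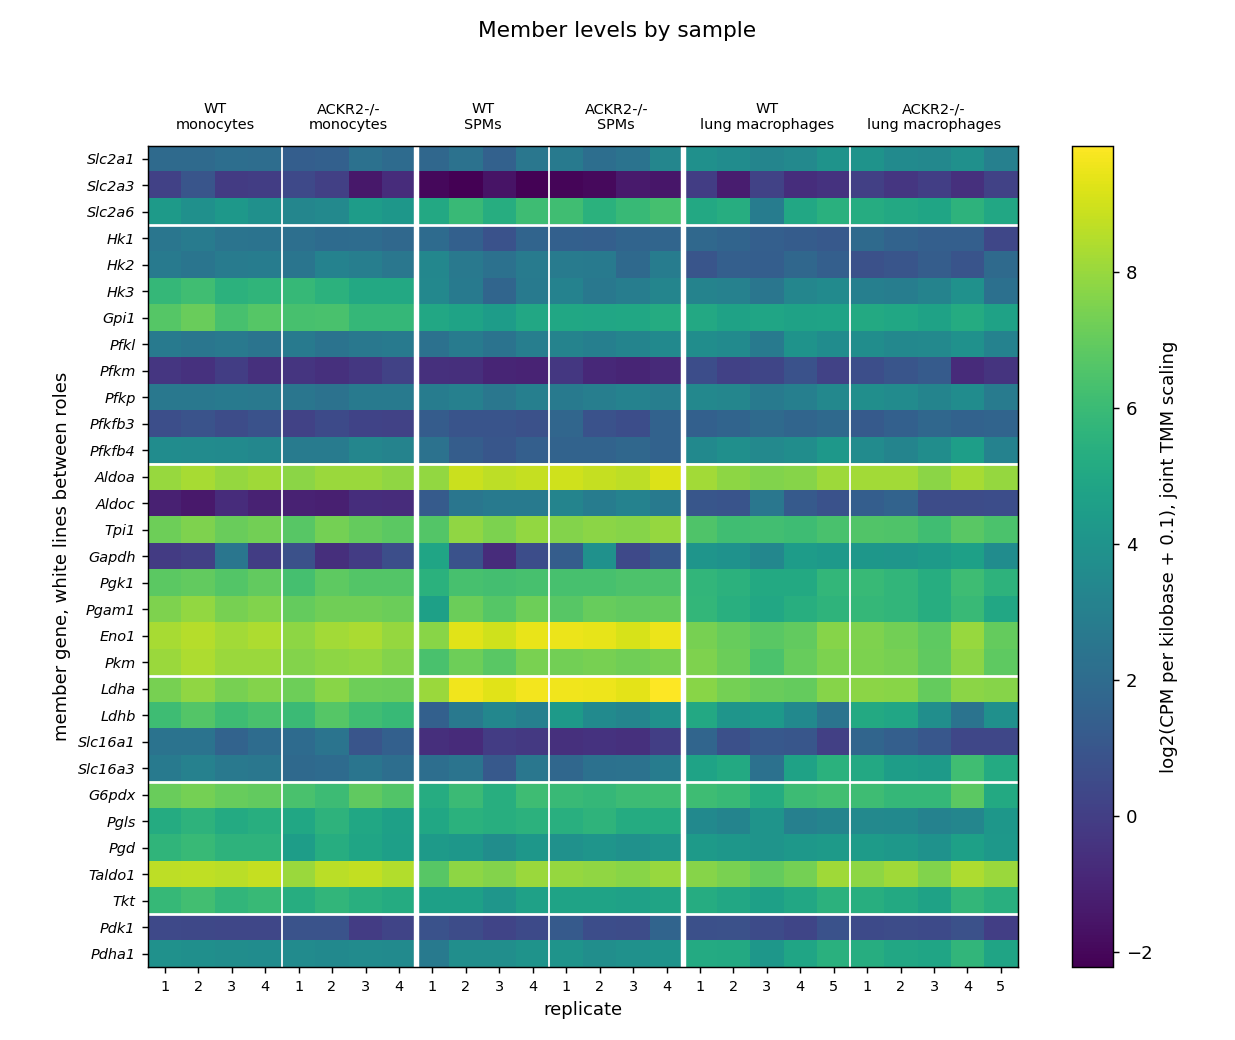
Level of the pathway genes in each library, as log2(CPM per kb + 0.1), with genes in rows by role and the replicates of the 6 groups in columns. Ldha is highest in SPMs, as is Eno1 except in WT replicate 1. Ldhb, Hk3 and Gpi1 are highest in monocytes and Slc16a3 is highest in lung macrophages except WT replicate 3.

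The comparison of ACKR2-/- with WT monocytes asked whether loss of the receptor changed these transcripts in cells that have not yet entered tissue. 26 of the 31 genes were lower in ACKR2-/- monocytes and 5 were higher, with a median log2 fold change of -0.25 against 0.00 over all 13246 genes tested. A gene was called when its adjusted p was below 0.05 and its fold change exceeded 0.5 on the log2 scale. Pgd alone was called, 1 of 31 genes, while 1.27% of all tested genes were called in either direction. At an unadjusted p below 0.05, 10 of 31 genes were lower and 0 were higher, against 8.17% lower and 8.83% higher over all tested genes. Together the 31 genes took 1.08 to 1.25% of the counts in WT monocytes and 0.935 to 1.04% in ACKR2-/- monocytes, without overlap. CPM in the genotype comparisons were scaled within each count table, and fold changes are given as ACKR2-/- over WT.

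Enzymes of the pentose phosphate pathway gave 3 of these 10 genes. Pgd, 6-phosphogluconate dehydrogenase, which makes NADPH at the second oxidative step, lies on chromosome 4 (mm10 149149991 to 149166771, minus strand). Its levels were 430, 494, 394 and 387 CPM in WT monocytes and 195, 321, 248 and 208 CPM in ACKR2-/- monocytes. Every ACKR2-/- library was below every WT library, and the log2 fold change was -0.81 (SE 0.17; edgeR quasi-likelihood test, Benjamini-Hochberg adjusted p = 0.0419). G6pdx, glucose 6-phosphate dehydrogenase, which opens the pathway, was at 546, 635, 520 and 491 CPM in WT and 348, 264, 471 and 392 CPM in ACKR2-/- monocytes. The genotypes did not overlap, but the log2 difference of -0.57 (SE 0.18) did not pass (edgeR quasi-likelihood test, Benjamini-Hochberg adjusted p = 0.139). Tkt, the transketolase of the non-oxidative branch, was at 569, 686, 497 and 556 CPM in WT and 394, 499, 406 and 354 CPM in ACKR2-/- monocytes. The highest ACKR2-/- library was level with the lowest WT library, with a log2 difference of -0.48 (SE 0.15; edgeR quasi-likelihood test, Benjamini-Hochberg adjusted p = 0.145). The 5 pentose phosphate genes had a median log2 difference of -0.48. Taldo1 and Pgls, the lactonase between G6pdx and Pgd, gave -0.19 and -0.25, with adjusted p-values of 0.571 and 0.503 in the same test.

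Slc16a3 (MCT4), the monocarboxylate transporter that exports lactate from glycolytic cells, lay next to Pgd in order of p. It was at 45.6, 56.0, 43.1 and 39.0 CPM in WT and 26.1, 26.01, 37.0 and 30.2 CPM in ACKR2-/- monocytes. The genotypes did not overlap, and the log2 difference was -0.62 (SE 0.15; edgeR quasi-likelihood test, Benjamini-Hochberg adjusted p = 0.0767). The other lactate genes differed less, by -0.24 for Ldha, -0.09 for Ldhb, which favours the return of lactate to pyruvate, and -0.28 for the lactate importer Slc16a1 (MCT1).

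Among the hexose phosphate steps, Hk1, the broadly expressed hexokinase, was at 62.8, 75.7, 57.7 and 54.9 CPM in WT and 51.8, 42.2, 44.3 and 39.2 CPM in ACKR2-/- monocytes. Pfkfb3, which makes the phosphofructokinase activator fructose 2,6-bisphosphate, was at 14.7, 16.4, 13.6 and 15.8 CPM in WT and 10.4, 12.6, 10.3 and 10.2 CPM in ACKR2-/- monocytes. Its paralog Pfkfb4 was at 78.5, 74.0, 73.8 and 62.4 CPM in WT and 45.1, 43.1, 61.7 and 57.3 CPM in ACKR2-/- monocytes. All 3 genes separated the genotypes, with log2 differences of -0.50, -0.48 and -0.48, none of which was called (edgeR quasi-likelihood test, Benjamini-Hochberg adjusted p = 0.101, 0.122 and 0.126). Gpi1, the isomerase that makes fructose 6-phosphate, overlapped at 863, 1110, 672 and 827 CPM in WT against 696, 692, 475 and 482 CPM, with a log2 difference of -0.57 (SE 0.19; adjusted p = 0.176 in the same test). Hk2, the inducible hexokinase, and the phosphofructokinase subunits Pfkl and Pfkm lay slightly above 0 in these cells, at 0.11, 0.09 and 0.16 on the log2 scale.

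Of the triose steps, Pgam1 (phosphoglycerate mutase) was at 443, 559, 398 and 443 CPM in WT and 309, 355, 353 and 338 CPM in ACKR2-/- monocytes, without overlap. Its log2 difference was -0.44 (SE 0.14; edgeR quasi-likelihood test, Benjamini-Hochberg adjusted p = 0.138). Pkm was at 1747, 2099, 1701 and 1680 CPM in WT and 1293, 1444, 1563 and 1289 CPM in ACKR2-/- monocytes, again without overlap, with a log2 difference of -0.37 (SE 0.15; adjusted p = 0.236 in the same test). In all, 8 of 31 genes did not overlap between genotypes, each lower in ACKR2-/- cells, where 10.2% of all tested genes did not overlap.

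**Figure D2:**
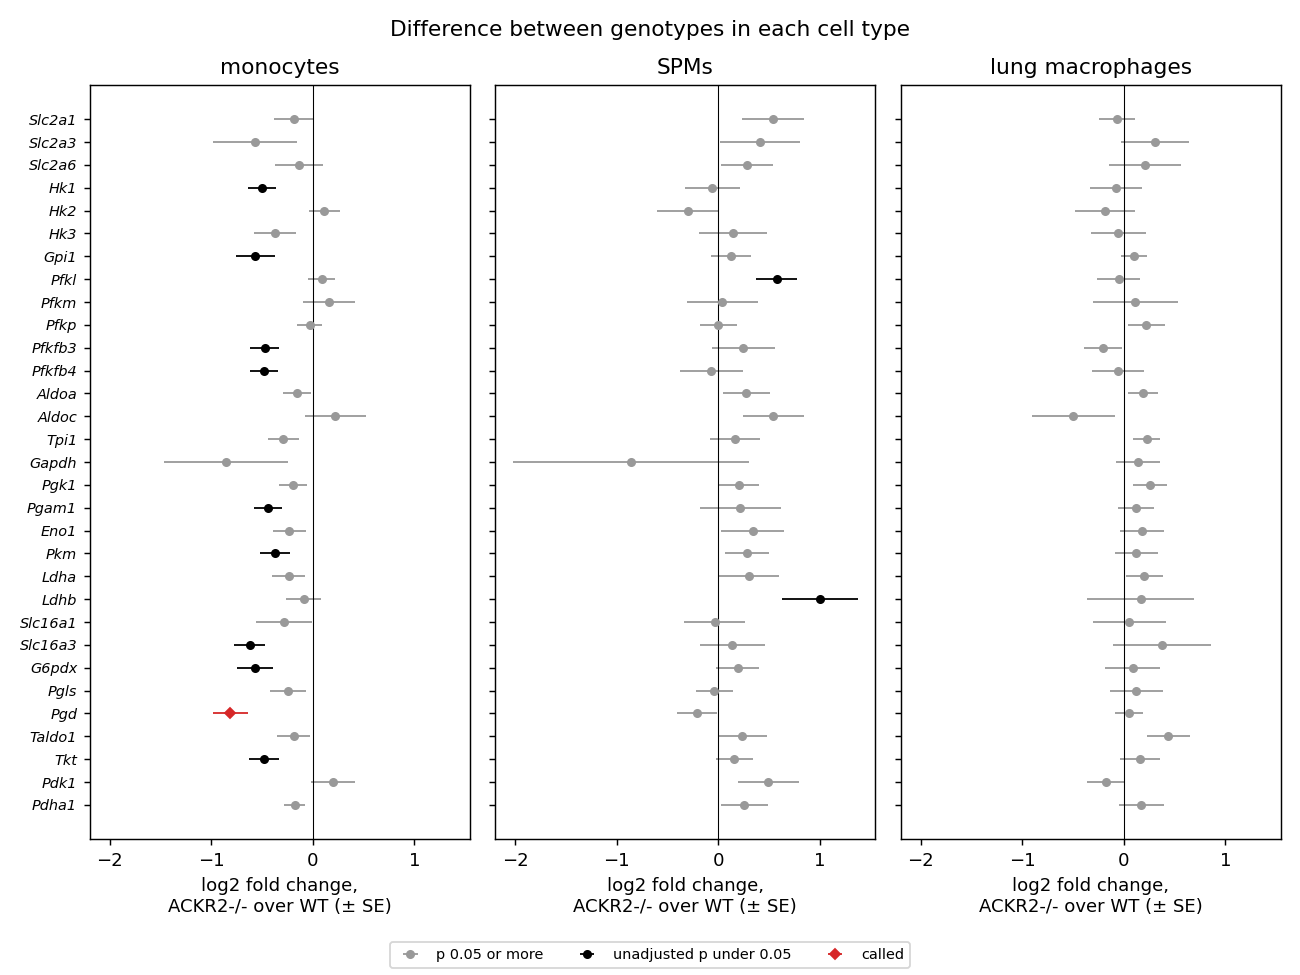
Log2 fold change of ACKR2-/- over WT (points) with its standard error (bars) for each gene in each cell type, where colour marks an unadjusted p below 0.05 (black) or a call (red diamond). Pgd in monocytes is the sole call, and most monocyte points lie below 0.

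The Pgd call depended on single libraries. Its log2 fold change lay between -0.96 and -0.72 when each monocyte library was left out in turn, but the adjusted p ranged from 0.00714 to 0.152 and 2 of the 8 fits called it, those without ACKR2-/- replicate 2 or 3 (edgeR quasi-likelihood test, Benjamini-Hochberg adjustment). DESeq2 called 4 of the pathway genes, Pgd, Slc16a3, Hk1 and G6pdx, all lower. Its calls over all genes were also more numerous, at 540 against 168 with edgeR.

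Markers of other cells moved with genotype in the monocyte samples. All 6 T cell markers rose, from a summed level of 2.73 to 3.80 CPM in WT to 56.2 to 97.2 CPM in ACKR2-/- monocytes. Neutrophil granule and surface genes, present in all 8 libraries, summed to 33462, 66320, 27248 and 42810 CPM in WT and 40173, 42189, 12655 and 15901 CPM in ACKR2-/- monocytes, and 0 of 7 were called (edgeR quasi-likelihood test, 2 of 7 lower at an unadjusted p below 0.05). ACKR2-/- replicates 1 and 2 had neutrophil sums within the WT range, and replicates 3 and 4 had sums below it. In order of replicate, Pgd was at 195, 321, 248 and 208 CPM and Slc16a3 at 26.1, 26.01, 37.0 and 30.2 CPM in these libraries. Gpi1 was at 696, 692, 475 and 482 CPM there, and the hexokinase Hk3 at 289, 218, 158 and 160 CPM. Among WT monocytes, replicate 2 had the highest neutrophil sum and the highest Pgd, Slc16a3, Gpi1 and Hk3, while Pfkfb4 was highest in replicate 1. Erythroid genes summed to 216 to 261 CPM in WT and 1046, 414, 92.9 and 56.8 CPM in ACKR2-/- monocytes. The 6 monocyte markers summed to 8209 to 8872 CPM in WT and 4942 to 9364 CPM in ACKR2-/- monocytes, and cycling genes to 1698 to 2072 and 1579 to 2062 CPM. The alveolar macrophage list, which here was nearly all Chil3, a gene that monocytes also express, summed to 8715, 9210, 7552 and 7958 CPM in WT and 5205, 6640, 5635 and 4960 CPM in ACKR2-/- monocytes, without overlap. Chil3 was not called (log2 difference -0.58; edgeR quasi-likelihood test, Benjamini-Hochberg adjusted p = 0.149), and of the other list genes Car4 and Fabp1 were at 0 in all 8 libraries and Marco at no more than 0.171 CPM. The macrophage markers summed to 275 to 415 CPM in WT and 183 to 411 CPM in ACKR2-/- monocytes. The part of these cells in the gene differences was not tested.

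In SPMs, 24 of the 31 genes were higher in ACKR2-/- cells, with a median log2 fold change of 0.21 against -0.05 over all 12997 genes tested. None was called (edgeR quasi-likelihood test, 0 of 31; 0.0462% of all tested genes were called), DESeq2 called 0 as well, and at an unadjusted p below 0.05 there were 2 higher and 0 lower, against 2.93% higher and 2.52% lower over all genes. Pfkl, the liver-type phosphofructokinase, was at 19.8, 25.3, 19.1 and 27.4 CPM in WT and 33.0, 28.3, 34.3 and 41.0 CPM in ACKR2-/- SPMs. Its log2 difference was 0.58 (SE 0.20; edgeR quasi-likelihood test, Benjamini-Hochberg adjusted p = 0.788), and it was the sole gene of the 31 whose genotypes did not overlap, while 3.4% of all tested genes did not. Ldhb was at 2.64, 5.47, 9.15 and 6.95 CPM in WT and 17.7, 9.79, 8.09 and 12.5 CPM in ACKR2-/- SPMs. WT replicate 1 was the lowest and ACKR2-/- replicate 3 fell inside the WT range, and the log2 difference of 1.00 (SE 0.37) had an adjusted p of 0.788 in the same test. Aldoc, the aldolase best known from brain, was at 4.65, 10.2, 12.3 and 11.8 CPM in WT and 16.8, 12.7, 15.6 and 11.6 CPM in ACKR2-/- SPMs, and the groups overlapped (log2 difference 0.54, SE 0.30).

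WT SPM replicate 1 was low for many of the triose genes. It had 28.0 CPM of Pgam1 against 105 to 144 in the other WT SPM libraries, 700 of Eno1 against 1540 to 2067, and 537 of Ldha against 1193 to 1443. Its Pgk1 level, of phosphoglycerate kinase, was 63.8 CPM against 96.8 to 103. Group medians, which a single low library moves less than means, were 124 CPM in WT and 125 CPM in ACKR2-/- SPMs for Pgam1. They were 1726.5 and 2038.7 CPM for Eno1, 1306 and 1392 CPM for Ldha and 98.2 and 105 CPM for Pgk1. With or without this library 0 of 31 genes were called (edgeR quasi-likelihood test), so that count does not show its weight. How far the higher levels in ACKR2-/- SPMs rest on it was not tested.

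Markers of other cells also differed between the SPM groups. The 4 large peritoneal macrophage markers summed to 167 to 592 CPM in WT and 487 to 1372 CPM in ACKR2-/- SPMs, the 4 alveolar macrophage markers to 17.3 to 65.3 and 34.2 to 454 CPM, the 5 NK cell markers to 17.4 to 81.6 and 42.7 to 147 CPM, the 6 erythroid markers to 1.76 to 110 and 46.7 to 659 CPM and the 6 cycling genes to 30.3 to 76.3 and 66.3 to 101 CPM. In each list the groups overlapped and the highest library was an ACKR2-/- one. None of these markers was called (edgeR quasi-likelihood test), and at an unadjusted p below 0.05 there were 2 of 4 large peritoneal macrophage, 1 of 2 tested alveolar macrophage, 3 of 5 NK cell, 3 of 3 tested erythroid and 0 of 6 cycling genes, all higher. Other lists had their highest library in WT SPMs. Among them, T cell markers summed to 240 to 475 CPM in WT and 205 to 391 CPM in ACKR2-/- SPMs. B cell markers summed to 168 to 549 and 341 to 480 CPM, and MHCII genes to 101940 to 134820 and 85341 to 127040 CPM. Their part in the differences was not tested.

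In lung macrophages, 22 of the 31 genes were higher in ACKR2-/- cells, with a median log2 fold change of 0.12 against -0.04 over all 16824 genes tested. None was called by the edgeR quasi-likelihood test, in which 0% of all tested genes were called, and none by DESeq2. At an unadjusted p below 0.05 there were 0 of 31 in either direction, against 1.24% higher and 1.72% lower over all genes, and 0 of 31 separated the genotypes, against 0.446%. Taldo1 came nearest, at 542, 494, 379, 479 and 762 CPM in WT and 600, 765, 558, 871 and 808 CPM in ACKR2-/- lung macrophages. The groups overlapped through WT replicate 5, and the log2 difference was 0.44 (SE 0.21; edgeR quasi-likelihood test, Benjamini-Hochberg adjusted p = 1.00). Tpi1, triose phosphate isomerase, was at 310, 258, 269, 259 and 287 CPM in WT and 318, 328, 271, 360 and 337 CPM in ACKR2-/- cells, with a log2 difference of 0.22 (SE 0.13). Pgk1 was at 146, 138, 105, 107 and 153 CPM in WT and 167, 150, 122, 188 and 150 CPM in ACKR2-/- cells, with a log2 difference of 0.26 (SE 0.17). Without WT replicates 3 and 5, the library with high MHCII genes and the library without Ackr2 reads, 0 of 31 were called and these differences were 0.56, 0.27 and 0.30. The 5 NK cell markers summed to 174 to 463 CPM in WT and 404 to 2542 CPM in ACKR2-/- lung macrophages, and the 6 T cell markers to 90.7 to 304 and 76.7 to 485 CPM. The edgeR quasi-likelihood test called 0 of either list, and at an unadjusted p below 0.05 5 of 5 NK cell and 1 of 6 T cell markers were higher. Their part in the differences was not tested.

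Whether the genotype effect differed between cell types was tested directly in a single fit of all 26 samples. For Pgd the effect in monocytes minus that in lung macrophages was -0.90 on the log2 scale (SE 0.25), with an adjusted p of 0.201 (edgeR quasi-likelihood test, Benjamini-Hochberg adjustment; unadjusted p = 0.0012). Against SPMs the smallest unadjusted p belonged to Gpi1, whose effect was lower in monocytes by a log2 value of -0.78 (edgeR quasi-likelihood test, adjusted p = 0.38). In the comparison of monocytes with SPMs, 7 of 31 genes had an unadjusted p below 0.05, against 7.46% of all tested genes. In that of SPMs with lung macrophages 3 of 31 did, against 6.15%, and in that of monocytes with lung macrophages 3 of 31, against 6.07%. No member was called in any of the 3 by edgeR, and DESeq2 called 0, 0 and 1, beside 132, 24 and 110 over all genes. Of all tested genes edgeR called 0.253%, 0.0393% and 0.152%, respectively. The 3 differences share their samples pairwise and are not independent.

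The cell types themselves differed far more than the genotypes. These differences are log2 fold changes within 1 genotype, from the fit of all 26 samples, and cell type, dissociation of the tissue, sequencing run and count table went together and cannot be told apart. In WT SPMs 4 of 31 genes were called higher and 14 lower than in WT monocytes, where 21.8% of all genes were called higher and 20.1% lower. In WT lung macrophages 10 were higher and 16 lower than in monocytes (all genes 39.5% and 24.4%), and 11 higher and 9 lower than in SPMs (39.1% and 23.2%). In ACKR2-/- cells the counts were 9 higher and 8 lower for SPMs against monocytes (20.8% and 19.5%), 11 and 11 for lung macrophages against monocytes (37.6% and 24.3%), and 9 and 11 for lung macrophages against SPMs (38.9% and 24.7%). The 3 comparisons share groups, so their values are given side by side. Scaling to library size alone moved the all-gene median of SPMs over monocytes from 0.00 to -0.96 in WT and to -1.22 in ACKR2-/- cells, and changed the split of the 31 genes to 1 higher and 27 lower in WT and 3 and 22 in ACKR2-/-. On that scale the split for lung macrophages over SPMs was 22 higher and 2 lower in WT and 20 and 4 in ACKR2-/-, and for lung macrophages over monocytes 10 and 16, and 9 and 15. The matching splits over all genes in WT were 1615 and 8349, 11809 and 1685, and 7130 and 3918.

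**Figure D3:**
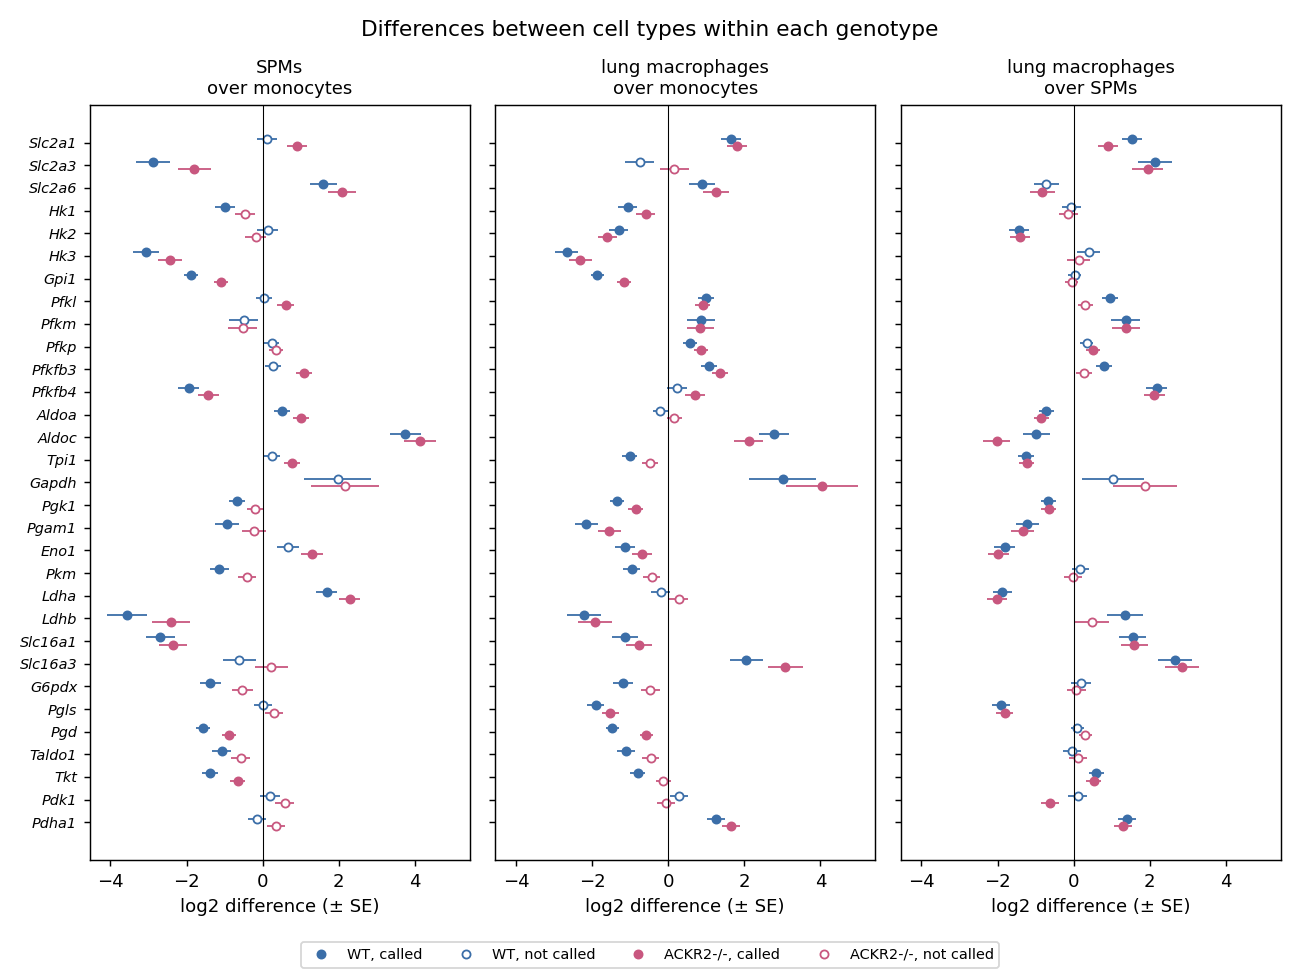
Log2 difference between cell types (points) with its standard error (bars) for each gene, in WT (blue) and ACKR2-/- (pink) samples, with filled points for called differences. Aldoc and Ldha are called higher and Ldhb, Hk3 and Slc16a1 lower in SPMs than in monocytes in both genotypes, and Slc16a3 is higher in lung macrophages than in either other cell type.

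The lactate genes gave each cell type its own combination. Ldha lies on chromosome 7 (mm10 46841475 to 46855627, plus strand), Ldhb on chromosome 6 (142490249 to 142507957, minus strand), Slc16a1 on chromosome 3 (104638668 to 104658462, plus strand) and Slc16a3 on chromosome 11 (120948480 to 120960868, plus strand). Their promoters are shown because these 4 genes, which act on the same metabolite, differed in opposite directions between the cell types. The sequences are the 250 bases before the RefSeq start site, from the RefSeq promoter table of GRCm38.p6 (the assembly also called mm10), written 5′ to 3′ on the strand of the gene. The windows are chr7:46845554-46845803 (plus) for Ldha, chr6:142507958-142508207 (minus) for Ldhb, chr3:104638414-104638663 (plus) for Slc16a1 and chr11:120948817-120949066 (plus) for Slc16a3. Capitals mark every ACGTG or GCGTG on either strand, the core letters of hypoxia response elements, and a CACGTG holds ACGTG on both strands.
Ldha: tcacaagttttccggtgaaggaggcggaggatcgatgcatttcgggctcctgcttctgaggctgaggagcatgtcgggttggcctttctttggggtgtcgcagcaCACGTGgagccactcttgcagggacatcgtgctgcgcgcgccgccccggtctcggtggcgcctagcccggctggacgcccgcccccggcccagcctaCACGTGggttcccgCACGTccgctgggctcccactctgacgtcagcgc
Ldhb: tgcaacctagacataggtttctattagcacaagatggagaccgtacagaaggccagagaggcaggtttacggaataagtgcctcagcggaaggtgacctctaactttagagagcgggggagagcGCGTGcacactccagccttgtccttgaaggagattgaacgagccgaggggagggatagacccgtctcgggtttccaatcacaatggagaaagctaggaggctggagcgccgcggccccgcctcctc
Slc16a1: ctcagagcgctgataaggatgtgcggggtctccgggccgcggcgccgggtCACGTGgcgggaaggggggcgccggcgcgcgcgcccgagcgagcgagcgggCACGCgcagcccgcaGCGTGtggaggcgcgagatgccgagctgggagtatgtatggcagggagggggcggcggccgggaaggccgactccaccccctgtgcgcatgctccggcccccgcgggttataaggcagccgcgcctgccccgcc
Slc16a3: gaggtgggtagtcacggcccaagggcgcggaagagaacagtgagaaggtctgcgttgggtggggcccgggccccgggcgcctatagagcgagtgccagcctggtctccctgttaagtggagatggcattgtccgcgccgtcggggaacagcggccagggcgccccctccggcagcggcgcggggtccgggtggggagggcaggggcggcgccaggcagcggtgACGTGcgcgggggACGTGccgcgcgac

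ACGTG occurred 5 times in the Ldha window, 2 times each in those of Slc16a1 and Slc16a3 and 0 times in that of Ldhb, counting both strands. GCGTG occurred 2 times for Slc16a1, 1 time for Ldhb and 0 times for Ldha and Slc16a3. Of the 30 pathway genes found in the table (all but Slc2a3), 10 held ACGTG (33.3%), 18 GCGTG (60%) and 25 either of them (83.3%). Over all 32851 promoters of the table the shares were 16.6%, 28.2% and 38.6%, and over the 14843 promoters of tested genes 20.6%, 41.3% and 52.3%. The Ldha start used lay 4329 bases downstream of the gene start in the count tables, and a match of letters shows neither binding nor use.

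Ldha was at 169, 231, 169 and 200 CPM per kb in WT monocytes, 261, 782, 637 and 796 in WT SPMs and 211, 164, 137, 128 and 202 in WT lung macrophages. SPMs were highest, without overlap with the other cell types, and WT SPM replicate 1 was nearest to them. In ACKR2-/- cells the SPM values of 786, 749, 668 and 933 CPM per kb again lay above the monocyte values (143 to 207) and the lung values (131 to 217). Ldha rose in SPMs over monocytes by 1.69 on the log2 scale in WT (SE 0.27) and by 2.29 in ACKR2-/- cells (SE 0.28), with adjusted p-values of 1.55e-05 and 3.42e-07 (edgeR quasi-likelihood test, Benjamini-Hochberg adjustment). Scaled to library size alone, the WT difference was 0.46 and not called, beside the all-gene median of -0.96.

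Ldhb went the other way. It was at 69.5, 99.5, 68.4 and 84.9 CPM per kb in WT monocytes, 2.70, 6.25, 10.3 and 8.22 in WT SPMs and 33.9, 16.8, 19.6, 11.2 and 5.38 in WT lung macrophages. All monocyte libraries were above all macrophage libraries, while SPMs and lung macrophages overlapped. The log2 difference of SPMs from monocytes was -3.56 in WT (SE 0.52) and -2.41 in ACKR2-/- cells (SE 0.49), with adjusted p-values of 4.45e-06 and 0.000325 (edgeR quasi-likelihood test, Benjamini-Hochberg adjustment). Lung macrophages were below monocytes by log2 values of -2.21 in WT and -1.93 in ACKR2-/- cells, both called. Their excess of Ldhb over SPMs in WT, 1.35 on the log2 scale, was called (edgeR quasi-likelihood test, adjusted p = 0.015) but not without WT SPM replicate 1 (1.08, adjusted p = 0.058) or WT lung replicate 1 (0.96).

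The lactate transporters also divided the cells. Slc16a3 was at 6.58, 8.29, 6.33 and 5.81 CPM per kb in WT monocytes, 4.33, 5.22, 2.10 and 5.91 in WT SPMs and 27.5, 35.0, 4.76, 26.8 and 45.7 in WT lung macrophages. The lung libraries were highest except for WT replicate 3, the library with high MHCII genes, whose 4.76 fell within the SPM range. The log2 difference of lung macrophages from monocytes was 2.05 in WT (SE 0.43) and 3.08 in ACKR2-/- cells (SE 0.45), both called (edgeR quasi-likelihood test, Benjamini-Hochberg adjusted p = 0.000217 and 2.41e-06). SPMs and monocytes did not differ beyond their spread in Slc16a3, by -0.61 in WT and 0.23 in ACKR2-/- cells. Scaled to library size alone, SPMs were called lower in Slc16a3 than monocytes, by log2 values of -1.76 in WT and -1.003 in ACKR2-/- cells (edgeR quasi-likelihood test, Benjamini-Hochberg adjusted p = 0.00119 and 0.0428). Slc16a1 was at 5.04, 5.05, 2.98 and 4.07 CPM per kb in WT monocytes, 0.557, 0.502, 0.843 and 0.776 in WT SPMs and 3.23, 1.56, 2.05, 1.94 and 0.958 in WT lung macrophages. SPMs were below every library of the other cell types, and the 3 cell types were called different from each other in both genotypes, with monocytes highest and a log2 difference of SPMs from monocytes of -2.69 in WT (SE 0.39). The call between ACKR2-/- lung macrophages and ACKR2-/- monocytes (-0.76) held in 4 of 9 fits that left out a library.

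The lung libraries with few epithelial transcripts also stood apart in lactate genes. WT replicate 5 and ACKR2-/- replicate 4 had epithelial sums of 214 and 185 CPM, where the other 8 lung libraries had 3382 to 10368 CPM. In these libraries, on the scale of the lung table, Ldhb was at 10.5 and 9.82 CPM against 24.1 to 66.7 CPM in the others, and Slc16a3 was at 303 and 454 CPM against 34.0 to 263 CPM. The part of epithelial RNA in these levels was not tested.

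The glucose transporters differed between cell types as well. Slc2a1 (GLUT1), the basal glucose transporter of many cells, was at 3.75, 3.79, 4.28 and 4.21 CPM per kb in WT monocytes, 3.47, 4.97, 2.84 and 5.93 in WT SPMs and 14.5, 12.3, 9.55, 10.9 and 15.6 in WT lung macrophages. All WT lung libraries lay above the other WT libraries, by a log2 difference of 1.65 from monocytes (SE 0.26) and 1.54 from SPMs, and both were also called in ACKR2-/- cells. Slc2a6, a transporter of lysosomal membranes that is found in leukocytes, was at 20.4, 14.3, 18.8 and 14.3 CPM per kb in WT monocytes and 33.3, 62.6, 39.5 and 69.7 in WT SPMs. SPMs were higher without overlap, with a log2 difference of 1.60 in WT (SE 0.36; 0.38 and not called when scaled to library size alone) and 2.08 in ACKR2-/- cells. In lung macrophages Slc2a6 was at 33.9, 39.9, 7.22, 32.3 and 43.0 CPM per kb in WT, with replicate 3 again apart, and was called over WT monocytes (0.88) but not without WT lung replicate 2 (0.78) or 5 (0.74), or WT monocyte replicate 2 (0.81) or 4 (0.80). Slc2a3, the high-affinity transporter, was scarce everywhere and lowest in SPMs, at 0.115 to 0.294 CPM per kb over the 8 libraries against 0.271 to 1.87 in monocytes and 0.315 to 1.03 in the lung. Its log2 difference of SPMs from monocytes was -2.88 in WT and -1.79 in ACKR2-/- cells, both called.

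At the hexokinase step, the monocyte libraries carried mostly Hk3, the hexokinase of myeloid cells. It was at 56.4, 72.2, 46.9 and 51.6 CPM per kb in WT monocytes, 10.5, 6.56, 3.25 and 6.73 in WT SPMs and 8.94, 8.31, 5.60, 9.98 and 11.7 in WT lung macrophages. Monocytes were above all macrophages in both genotypes, and in WT the log2 difference of SPMs from monocytes was -3.06 (SE 0.33) and that of lung macrophages -2.67 (SE 0.30; edgeR quasi-likelihood test, Benjamini-Hochberg adjusted p = 4.91e-08 and 3.64e-08). Lung macrophages and SPMs did not differ in Hk3 beyond their spread, by 0.39 in WT and 0.13 in ACKR2-/- cells. Scaled to library size alone, lung macrophages were called higher in Hk3 than SPMs, by 1.55 in WT and 1.28 in ACKR2-/- cells (edgeR quasi-likelihood test, Benjamini-Hochberg adjusted p = 0.000271 and 0.00147). Gpi1 followed the same order, with 81.3 to 136 CPM per kb in WT monocytes against 21.8 to 32.3 in WT SPMs and 27.0 to 33.9 in WT lung macrophages. The monocyte libraries also held neutrophil marker genes, summed to 12655 to 66320 CPM, against at most 11.8 CPM in SPMs and 45.2 CPM in lung macrophages. The part of neutrophil RNA in the higher Hk3, Gpi1 and pentose phosphate gene levels of monocyte libraries was not tested. Hk2 was lowest in lung macrophages, by a log2 difference of -1.43 from SPMs (-0.25 and not called when scaled to library size alone) and -1.30 from monocytes in WT.

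Of the regulators of phosphofructokinase, Pfkfb4 was lowest in SPMs, at 4.93, 2.47, 1.91 and 2.62 CPM per kb in WT against 12.4, 12.0, 11.8 and 10.1 in WT monocytes and 11.4, 13.7, 11.1, 13.1 and 18.6 in WT lung macrophages. The log2 difference of lung macrophages from SPMs was 2.18 in WT and 2.12 in ACKR2-/- cells (SE 0.28 in each). Pfkfb3, Pfkl, Pfkm and Pfkp (platelet phosphofructokinase) were called higher in lung macrophages than in monocytes in both genotypes, by log2 values between 0.57 and 1.36. The Pfkm call held in 4 of 9 WT fits and 3 of 9 ACKR2-/- fits that left out a library. Of the 9 hexose phosphate genes, 0 were called higher and 4 lower in WT SPMs than in WT monocytes, and 4 higher and 4 lower in WT lung macrophages. Over all genes 21.8% were higher and 20.1% lower in WT SPMs, and 39.5% and 24.4% in WT lung macrophages.

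Over all genes 23.2% were called lower and 39.1% higher in WT lung macrophages than in WT SPMs. In ACKR2-/- cells the shares were 24.7% and 38.9%. Of the 8 triose genes tested, 6 were called lower in lung macrophages than in SPMs in each genotype and 0 higher. These were Aldoa, Aldoc, Tpi1, Pgk1, Pgam1 and Eno1, by log2 values from -0.67 to -1.81 in WT, although on scaling to library size alone Aldoa and Aldoc turned to 0.57 and 0.34, and Aldoa in ACKR2-/- cells to 0.33. The call of Aldoc in WT was lost without WT SPM replicate 3 or 4 (-0.85 and -0.84). Eno1 was at 209, 638, 506 and 714 CPM per kb in WT SPMs and 167, 134, 109, 126 and 202 in WT lung macrophages, where WT SPM replicate 1 came close to the lung values. Aldoc, on chromosome 11 (78322968 to 78327781, plus strand), was at 0.368, 0.285, 0.532 and 0.380 CPM per kb in WT monocytes and 2.29, 5.62, 6.67 and 6.71 in WT SPMs. In WT lung macrophages Aldoc was at 1.94, 1.79, 5.87, 2.21 and 1.66 CPM per kb, with replicate 3 apart. SPMs were above monocytes by log2 values of 3.75 in WT and 4.14 in ACKR2-/- cells (SE 0.42 in each), the widest rise of SPMs over monocytes among the 31 genes in both genotypes. Aldoa rose in SPMs over monocytes by 0.51 in WT and 1.01 in ACKR2-/- cells, but gave -0.69 and -0.24 when scaled to library size alone, and the WT call held in 1 of 8 fits that left out a library.

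In WT cells, the pentose phosphate genes other than Pgls were highest in monocytes. Of the 5 pentose phosphate genes, 4 were called lower in WT SPMs than in WT monocytes and 5 lower in WT lung macrophages, with 0 higher. Over all genes 20.1% and 24.4% were lower, and 21.8% and 39.5% higher. In ACKR2-/- cells 2 of 5 were lower in each (all genes 19.5% and 24.3%). Pgd was at 51.2, 60.4, 47.7 and 47.5 CPM per kb in WT monocytes against 20.3, 18.3, 12.97 and 18.2 in WT SPMs and 20.4, 17.8, 16.1, 18.5 and 20.6 in WT lung macrophages. The monocyte level was above all macrophages, and in ACKR2-/- cells it still was for 2 of 4 libraries, at 22.7, 39.2, 29.9 and 24.6 CPM per kb against at most 24.7 in macrophages. The log2 difference of lung macrophages from monocytes was -1.47 in WT and -0.57 in ACKR2-/- cells, both called (edgeR quasi-likelihood test, Benjamini-Hochberg adjusted p = 8.31e-08 and 0.00578). Tkt was lowest in SPMs, by a log2 difference of -1.39 from monocytes in WT, and lung macrophages were above SPMs by 0.59, both also called in ACKR2-/- cells. Pgls was lower in lung macrophages than in both other cell types, by log2 values of -1.90 from monocytes and -1.91 from SPMs in WT, while SPMs and monocytes did not differ in it beyond their spread (0.01 in WT and 0.29 in ACKR2-/- cells). Pdha1, a subunit of the pyruvate dehydrogenase complex, was higher in lung macrophages, by 1.25 over monocytes and 1.41 over SPMs in WT. Pdk1 was called in 1 of 6 comparisons, lower in ACKR2-/- lung macrophages than in ACKR2-/- SPMs (-0.63).

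Ratios of paralogs within a library do not depend on the scaling between libraries. The per-kb level of Ldha exceeded that of Ldhb 2.34-fold at the median in monocytes, 67.5-fold in SPMs and 9.81-fold in lung macrophages. The log2 ratio was 1.02 to 1.30 in monocytes, 5.27 to 6.96 in SPMs and 2.62 to 5.38 in the lung, so that the monocytes stood apart from both macrophages. Aldoa exceeded Aldoc 614-fold in monocytes, 63.7-fold in SPMs and 138-fold in lung macrophages. Slc2a1 exceeded Slc2a3 4.22-fold, 31.3-fold and 16.5-fold in the same order. Hk2 was at 0.141 times the level of Hk3 in monocytes, 0.965 times in SPMs and 0.263 times in the lung, and Slc16a1 was at 0.667, 0.131 and 0.0832 times the level of Slc16a3. The phosphofructokinase pair stayed near equality, with Pfkl at 0.985, 1.00 and 1.17 times the level of Pfkp, while Pfkfb3 was at 0.131, 0.664 and 0.241 times that of Pfkfb4 and Hk1 at 0.745, 0.421 and 1.13 times that of Hk2. Between genotypes, 0 of 24 ratios had an adjusted p below 0.05 and 1 had an unadjusted p below 0.05 in a two-sided exact permutation test, whose smallest possible p is 0.029 for 4 against 4 samples and 0.0079 for 5 against 5. That ratio was Pfkl over Pfkp in SPMs, at a mean log2 of -0.28 ± 0.21 in WT and 0.29 ± 0.26 in ACKR2-/- cells (SD, n = 4 in each, exact permutation test, p = 0.029, adjusted p = 0.549), higher in each of 4 ACKR2-/- libraries than in any WT library.

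**Figure D4:**
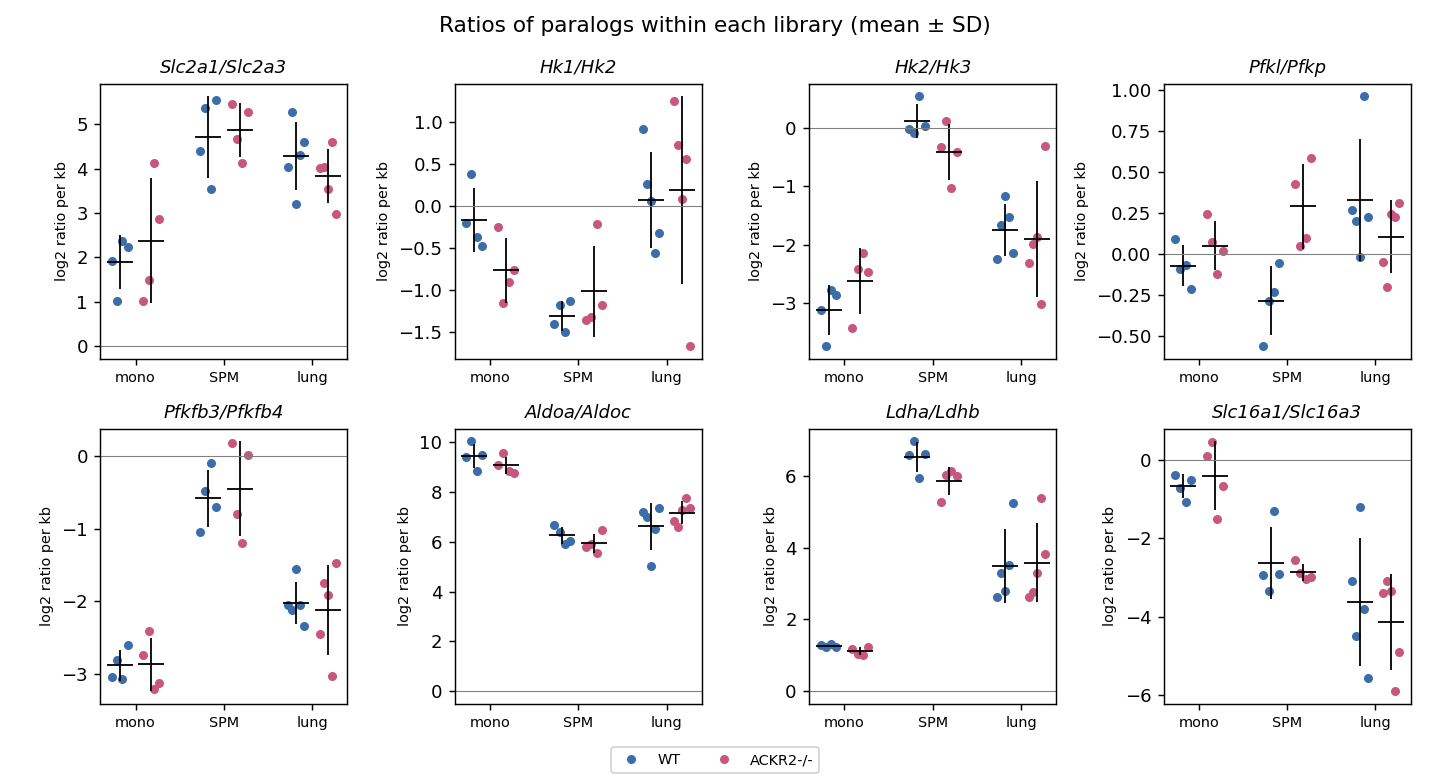
Log2 ratio of per-kb levels of 8 pairs of paralogs in each library (points), with the mean and SD (lines), for monocytes, SPMs and lung macrophages of WT (blue) and ACKR2-/- (pink) mice. The Ldha over Ldhb ratio lies between 1.02 and 1.30 in monocytes and between 5.27 and 6.96 in SPMs.

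Gapdh, glyceraldehyde 3-phosphate dehydrogenase on chromosome 6 (125161715 to 125166467, minus strand), was counted far below its neighbours in the pathway. Its reads numbered 52 to 541 per monocyte library, 14 to 1555 per SPM library and 1119 to 3128 per lung library, while Tpi1 had 7238 to 10483, 3161 to 13835 and 5197 to 9692. In stretches of 100 bases, 93.9% of the Gapdh coding sequence recurs in another annotated gene, with 86 such genes in all. Reads on those 86 genes made up 82.1 to 97.6% of the sum with Gapdh in monocytes, 61.1 to 99.6% in SPMs and 62.2 to 73.3% in the lung. How many of the reads came from Gapdh itself cannot be told from counts, and its level is uncertain, as are its called log2 differences of 3.01 in WT and 4.04 in ACKR2-/- cells between lung macrophages and monocytes. A coding stretch of 60 bases shows what is shared. It is on the minus strand at chr6:125162941-125163000 (mm10, coding bases 440 to 499 of Gapdh-202), and the 100-base window that begins there recurs in 38 other genes of the reference annotation.
Gapdh-202: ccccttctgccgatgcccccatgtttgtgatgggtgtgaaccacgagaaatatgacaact

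**Figure D5:**
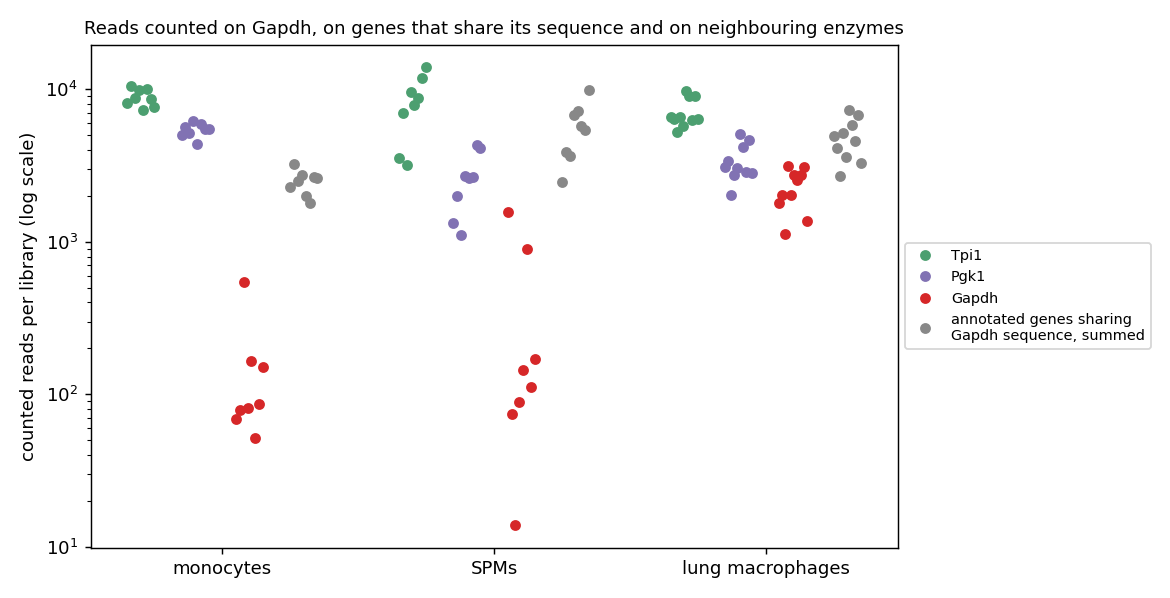
Reads per library (log axis) for Tpi1, Pgk1, Gapdh and the summed genes that share 100-base windows with Gapdh, in the 3 cell types. Gapdh stays between 14 and 1555 reads in SPMs, below Tpi1 in each cell type.

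Pgk1 and Pgam1 have retrocopies that share every 100-base window of their coding sequence, and 69.3% of such windows of Eno1 recur in 4 other annotated genes, Eno1b among them. The copies took at most 8.40%, 10.1% and 14.7% of the summed reads for these 3 genes. Their median shares were 2.19%, 2.01% and 6.23% in SPMs and 0.186%, 0.740% and 1.82% in the lung. Reads that could not be placed on a single gene may be in neither count, so these shares do not bound the reads lost. The levels of Pgk1, Pgam1 and Eno1 are uncertain to that extent, as are their differences between lung macrophages and SPMs.

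Other genes of glucose metabolism, the TCA cycle, HIF and NRF2 were taken from lists of companion genes. By genotype in monocytes, 0 of 27 other glucose genes, 0 of 25 TCA genes and 0 of 20 HIF genes were called (edgeR quasi-likelihood test; at an unadjusted p below 0.05, 7, 3 and 4 of them). Over all tested genes 1.27% were called, and at that unadjusted p 8.83% were higher and 8.17% lower. Of 9 tested NRF2 genes, Txnrd1, thioredoxin reductase, was called lower at 60.8, 65.4, 49.0 and 52.1 CPM in WT and 38.2, 40.6, 35.5 and 38.2 CPM in ACKR2-/- monocytes. The genotypes did not overlap, with a log2 fold change of -0.57 (SE 0.12; edgeR quasi-likelihood test, Benjamini-Hochberg adjusted p = 0.0443), called in 1 of 8 fits that left out a library. Hif1a, the oxygen-regulated transcription factor whose targets include many glycolytic genes and which was picked after its values were seen, was at 49.6, 43.1, 41.7 and 36.1 CPM in WT and 24.4, 30.97, 31.3 and 30.0 CPM in ACKR2-/- monocytes, without overlap (log2 difference -0.55; adjusted p = 0.072 in the same test). In SPMs Hif1a was at 78.7 CPM in WT replicate 1 and 25.02 to 33.3 CPM in the other 7 libraries.

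Between cell types, of 30 companion genes of glucose metabolism 2 were called higher and 13 lower in WT SPMs than in WT monocytes, and 7 and 15 in WT lung macrophages. The background for these and the next counts is that over all tested genes 21.8% were called higher and 20.1% lower in WT SPMs than in WT monocytes, and 39.5% and 24.4% in WT lung macrophages. Eno3, the muscle enolase, was at a mean of 6.56 CPM in WT monocytes, 3.88 in WT SPMs and 438 in WT lung macrophages, where single libraries ranged from 85.4 to 674 CPM. Fbp1, fructose bisphosphatase of gluconeogenesis, was at 26.4, 0.144 and 0.240 CPM in the same order. Adpgk, the ADP-dependent glucokinase, was at 78.4, 3.60 and 14.4 CPM, so that Fbp1 and Adpgk were highest in monocytes and Eno3 in the lung. Of 27 TCA genes, 4 were higher and 7 lower in WT SPMs and 3 and 13 in WT lung macrophages than in monocytes. Of 25 HIF genes 8 were higher and 4 lower in WT SPMs than in monocytes, and 12 and 4 in WT lung macrophages. Vegfa, the angiogenic factor induced by HIF, was at 8.34 CPM in WT monocytes, 0.129 in WT SPMs and 39.1 in WT lung macrophages. Mlxipl, the carbohydrate response factor ChREBP, was at 0.922, 32.8 and 1.63 CPM, highest in the cell type where Vegfa was lowest. Of 9 NRF2 genes 2 were higher and 7 lower in WT SPMs than in monocytes, and 7 and 2 in WT lung macrophages. Srxn1, sulfiredoxin, was at 3.32 CPM in WT monocytes, 18.8 in WT SPMs and 35.4 in WT lung macrophages, and Slc7a11, the cystine transporter, at 4.58, 0.402 and 21.8 CPM.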

How the data were processed

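RNA was sequenced from FACS sorted bone marrow monocytes, SPMs and MHCII negative lung macrophages of WT and ACKR2-/- mice (poly-A selection, amplified cDNA, paired reads of 150 bases). The values the authors deposited are unnormalised read counts, in 1 gene table per cell type, made per the submitters' processing notes with HISAT2 (2.0.5) and featureCounts (1.5.0-p3) on mm10; for the lung table, which differs in layout, no counter or annotation is given in the sources used. It carries 5 summary lines (56.3% of its counts), which were left out. Genes were filtered with filterByExpr (minimum count 10, total 15), scaled by TMM and tested with edgeR (4.0.16) quasi-likelihood fits in R (4.3.3), per table for genotype and over all 26 samples for cell types and differences between effects. P-values were adjusted by Benjamini-Hochberg over all genes tested, 13246, 12997, 16824 and 17792. Gene length comes from the tables. Ratios of paralogs added 0.5 counts and used a two-sided exact permutation test, adjusted over 24 ratios.

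The members and the companion lists were chosen with earlier results of these data known. The lists came from general knowledge of the pathways. Genes named by genotype were those called, those with an unadjusted p below 0.05 and the 3 with the smallest p per cell type. Between cell types, the paralogs, the genes called one way against both other cell types in both genotypes and the 5 largest differences per pair were named. Companion genes were named where called by genotype or among the 3 largest differences per list and pair of cell types, of which examples are given. In place of a test of each list, counts and medians stand beside those over all genes. Alternatives were a robust fit, a filter at 1 CPM or none, RLE factors, the replicate number as a block, DESeq2 (1.42.0), library size alone, fits of only the groups compared and leaving out each library. Leaving out WT lung replicates 3 and 5 together was decided on after seeing the data. The fits were tested on simulated data. Nothing used here states how many mice made a lung sample, and p-values measure the spread between these samples, of which no pair was identical. A count of 0 in a library allows up to 3 counts, 0.0847 to 0.235 CPM by library, counting error only.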

Additional observations from a re-analysis of the deposited data

Results flagged for a closer look

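In 14 of 186 groups of 4 or 5 libraries, the highest or lowest library of a gene stood far from the rest of its group by Dixon's test at 95%, where chance gives about 1 in 20, or 9.3. WT SPM replicate 1 gave 3 of them, with 14.95 CPM of Pfkfb4 against 5.28 to 6.87 in the other libraries of its group, 74.5 CPM of Gapdh against 1.23 to 3.82, and 63.8 CPM of Pgk1 against 96.8 to 103. WT lung replicate 3, the library with high MHCII genes, gave 3, with 31.1 CPM of Slc2a6 against 132 to 172, 25.7 CPM of Aldoc against 6.75 to 9.87, and 82.7 CPM of Pgls against 41.8 to 52.6. Gapdh was also apart in WT monocyte replicate 3, at 30.1 CPM against 4.49 to 4.91, and in ACKR2-/- SPM replicate 2, at 32.9 CPM against 2.89 to 5.52.

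In ACKR2-/- monocyte replicate 2, Pfkfb3 was at 12.6 CPM against 10.2 to 10.4 and Ldha at 870 CPM against 620 to 642. Pkm was at 2099 CPM in WT monocyte replicate 2 against 1680 to 1747. Slc16a1 was at 2.18 CPM in ACKR2-/- SPM replicate 4 against 1.42 to 1.503. In the lung, Ldha was at 589.9 CPM in ACKR2-/- replicate 3 against 864 to 923, and Pgls at 95.1 CPM in ACKR2-/- replicate 5 against 45.5 to 53.4.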

How the results depend on the processing

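The count of pathway genes called between genotypes in monocytes was 1, and 2 with no filter on low counts, 4 with DESeq2 and 0 to 3 when a library was left out. In SPMs and lung macrophages it was 0 in every setting. Over all genes the count of 168 in monocytes became 346 with no filter, 540 with DESeq2 and 76 to 413 when a library was left out, that of 6 in SPMs became 52, 30 and 3 to 8, and that of 0 in the lung became 15 with DESeq2. The difference between effects in monocytes and SPMs gave 45 calls, 132 with DESeq2 and 29 to 57 with a library left out, that of SPMs and lung 7, 24 and 4 to 7, and that of monocytes and lung 27, 110 and 13 to 53, 42 with no filter, with 1 pathway gene by DESeq2. The cause of these shifts was not tested.

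Replicate numbers are shared between groups, but same-numbered libraries did not deviate together throughout (correlations of -0.13 to 0.37 in monocytes, -0.12 to -0.01 in SPMs and -0.10 to 0.69 in the lung). No pairing was assumed in the main fits, and these values cannot exclude one for single pairs of libraries. With the replicate block, Pgd in monocytes was called with a log2 fold change of -0.83, as 1 pathway gene among 186 genes. The block changed no call of a pathway gene between genotypes.

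Scaling to library size alone raised the calls in WT SPMs over monocytes from 18 to 28 pathway genes, and in ACKR2-/- cells from 7172 to 11298 genes. It turned the direction of Slc2a1 (-1.07), Hk2 (-0.95), Pfkl (-1.15), Pfkp (-0.92), Pfkfb3 (-0.84) and Aldoa (-0.69) in WT SPMs over monocytes, and in ACKR2-/- of Slc2a1 (-0.33), Pfkl (-0.65), Pfkp (-0.88), Pfkfb3 (-0.18), Aldoa (-0.24) and Slc16a3 (-1.003). For lung over SPMs it turned Slc2a6 (0.58), Hk1 (1.12), Aldoa (0.57) and Aldoc (0.34) in WT, and Slc2a6 (0.33), Hk1 (1.03) and Aldoa (0.33) in ACKR2-/-. Differences near 0 also changed sign. Pfkl in WT SPMs against WT monocytes gave -0.028 with no filter and -0.0029 with only the 2 groups. When a library was left out it ranged from -0.10 to 0.13, Slc2a1 from -0.095 to 0.25 and Hk2 from -0.12 to 0.27 in that comparison. Hk1 in lung over SPMs ranged from -0.24 to 0.13 in WT and from -0.30 to 0.0499 in ACKR2-/-, Hk3 in ACKR2-/- lung over SPMs from -0.10 to 0.29, and Slc2a3 in ACKR2-/- lung over monocytes from -0.12 to 0.51. None of these was called.

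Depth limits most Slc2a3, Pfkm and Slc16a1 in SPMs, with 48, 73 and 130 reads over the 4 WT libraries, and Aldoc in monocytes, with 111. Cell type comparisons cross tables that were made separately.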
